A study of Mus musculus with 6 samples.

Results

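The 10 genes described here are Peg3, Usp29, Zim1, Plagl1, Grb10, Nnat, Gnas, Impact, Zrsr1 and Peg13, imprinted mouse genes outside the Prader-Willi, Igf2, Igf2r, Dlk1 and Peg10 clusters. They were chosen by name, and all 10 were found by symbol among the 27179 Entrez gene records of the deposited tables. RNA had been sequenced from neural stem cells grown from brains of E14.5 mouse embryos, all labelled male and of the strain C57BL/6 x FVB/N, and kept dividing with EGF and bFGF at 20 ng/ml each. The 3 Smchd1 null libraries came from cells homozygous for the MommeD1 allele, and the 3 wild type libraries from cells labelled Smchd1 wild-type. The comparison asks how these genes are expressed when Smchd1, a chromatin protein of the SMC family that takes part in silencing, is lost. Nothing in the labels says whether the libraries of a group came from separate embryos, so p-values measure only the spread between these libraries, which may be technical.

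An imprinted gene is transcribed mainly from the copy inherited from one parent, and the choice is carried by DNA methylation laid down at CG dinucleotides in the egg or the sperm. Many imprinted genes act on fetal growth and on the brain. Reads here were counted per gene without regard to allele, so a change of allele use that left the total the same would not be visible. Peg3, Usp29, Plagl1, Nnat, Impact, Zrsr1 and Peg13 are known as paternally expressed and Zim1 as maternally expressed. Grb10 is maternally expressed in most tissues and paternally expressed in neurons, from different promoters, and Gnas produces maternal, paternal and biallelic transcripts.

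Promoter windows of 300 bases are shown for Peg3, Grb10 and Gnas. Of the 10 genes, only these had an unadjusted p under 0.05 in the edgeR test of all 6 libraries. The sequences are from RefSeq for GRCm38.p6, the assembly of mm10, and are written 5′ to 3′ on the strand of the gene, with CG dinucleotides in capitals. Peg3 and Usp29 are transcribed away from each other, with 146 bases between the 2 annotated genes, and their windows share 263 bases, so a single sequence is shown for the pair. Both Grb10 windows are shown, and of the 4 Gnas windows the one with the most CG. All are promoter windows, and whether any of them carries the methylation that marks the parental copies was not examined.
Peg3 window, chr7:6730370-6730669, minus strand: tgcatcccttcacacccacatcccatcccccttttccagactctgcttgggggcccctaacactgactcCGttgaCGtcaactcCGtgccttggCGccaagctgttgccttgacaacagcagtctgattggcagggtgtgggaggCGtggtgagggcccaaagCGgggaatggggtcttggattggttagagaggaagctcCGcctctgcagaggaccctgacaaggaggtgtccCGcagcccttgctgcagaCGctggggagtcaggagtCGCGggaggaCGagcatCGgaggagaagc
Grb10 window 1, chr11:12037371-12037670, minus strand: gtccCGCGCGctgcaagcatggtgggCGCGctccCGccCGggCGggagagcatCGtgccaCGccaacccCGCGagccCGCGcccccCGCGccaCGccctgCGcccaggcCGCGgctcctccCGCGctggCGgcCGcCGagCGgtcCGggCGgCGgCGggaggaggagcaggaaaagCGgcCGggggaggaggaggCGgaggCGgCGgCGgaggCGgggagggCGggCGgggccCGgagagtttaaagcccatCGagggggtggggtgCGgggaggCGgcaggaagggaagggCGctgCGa
Grb10 window 2, chr11:12027922-12028221, minus strand: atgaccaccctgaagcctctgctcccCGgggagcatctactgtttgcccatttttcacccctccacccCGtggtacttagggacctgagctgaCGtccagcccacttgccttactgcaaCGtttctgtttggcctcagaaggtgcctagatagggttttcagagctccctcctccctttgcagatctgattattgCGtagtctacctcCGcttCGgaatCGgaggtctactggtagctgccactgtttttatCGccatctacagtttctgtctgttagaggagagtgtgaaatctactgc
Gnas window 4, chr2:174329756-174330055, plus strand: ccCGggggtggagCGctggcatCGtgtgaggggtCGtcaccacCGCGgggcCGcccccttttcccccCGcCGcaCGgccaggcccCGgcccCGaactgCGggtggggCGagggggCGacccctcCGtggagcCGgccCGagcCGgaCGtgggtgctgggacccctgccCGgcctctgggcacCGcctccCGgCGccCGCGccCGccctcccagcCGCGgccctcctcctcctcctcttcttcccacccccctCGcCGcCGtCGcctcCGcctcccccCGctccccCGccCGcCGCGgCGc
The Peg3 window held 13 CG dinucleotides, Grb10 windows 1 and 2 held 45 and 9, and Gnas window 4 held 40. The other Gnas windows, 1 to 3, held 27, 16 and 28, and windows 1 and 3 share 281 bases. Over all 32851 promoter windows the median was 7, and 98.1% of windows held fewer than Grb10 window 1. The letters TGCCGC, the core recognised by the imprint-protecting zinc finger protein ZFP57, were searched on both strands. They occurred in Grb10 window 1 and in the windows of Zim1, Plagl1 and Nnat, that is in 4 of 12 windows of these genes, some of which overlap as given above, and in 11.6% of all windows. The letters contain a CG, and all 12 windows held more CG than the median window. The share over all windows was not matched for CG, so the 2 shares cannot be compared directly. The letters are not in the Peg3 and Gnas windows shown. Deposited counts are per gene, so transcripts from the separate starts of Grb10 and of Gnas were summed.

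The null libraries held 18608881 to 19137666 counts and the wild type libraries 19504879 to 23253367. Smchd1 had 30.3, 31.1 and 27.9 CPM in null libraries 1 to 3, against 271, 260 and 232 CPM in wild type libraries 1 to 3, where CPM is counts per M counts of TMM-scaled library size. Wild type replicate 3 stood apart from all other libraries. In it 6 records took 58.3% of the counts, against 5.84% to 11.71% in each of the others, which left an effective depth of 10.1 M counts, against 21.3 to 25.8 M. Sample names number the null libraries from 11 to 13, wild type replicate 3 as 14, and wild type replicates 1 and 2 in a higher range, so wild type replicate 3 is also the only wild type library in the lower range of names. For 572 of the 14207 tested genes it differed more than 2-fold from the mean of wild type replicates 1 and 2, whereas those 2 differed from each other that far for 14 genes. The 10 neural stem cell markers summed to 5220 to 5370 CPM in null and 5200 to 5730 in wild type, most of it Vim, Fabp7 and Nes. Sox2 had 278 CPM in each null library and 251.5, 257.9 and 284.9 CPM in the wild type libraries. The lowest of the list, Hes5, had 4.04 to 4.95 CPM in null and 4.05 to 5.26 in wild type. Notch1 had 182.2 to 187.1 CPM in null, against 160.2, 138.4 and 194.1 CPM in wild type replicates 1, 2 and 3. Of other cell types, 5 microglial markers summed to 1.93 to 2.48 CPM in null and 1.78 to 2.90 in wild type, almost all from P2ry12, with Tmem119 at 0 in every library. The 4 vessel markers summed to 1.46 to 2.02 CPM in null and 1.59 to 2.78 in wild type, mostly from Kdr, with Cdh5 at 0, and the 5 fibroblast markers to 1.88 to 2.54 CPM in null and 0.853 to 2.48 in wild type.

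All 10 genes were abundant enough to be tested, and none was called at an adjusted p under 0.05 in the edgeR quasi-likelihood test of all 6 libraries. Over all tested genes 0.577% were called, 72 higher and 10 lower in null. Of the 10 genes, 3 had an unadjusted p under 0.05, namely Peg3, Grb10 and Gnas, as had 18.6% of all tested genes. DESeq2 called 1 of the 10, Gnas, limma-voom called 0, and limma-voom with sample quality weights called 4, where these tests called 2.82%, 1.02% and 36.8% of all tested genes. The log2 fold changes of the 10 genes, null minus wild type, were positive for 5 and negative for 5, with a median of 0.00, equal to the median of all tested genes. The median of their absolute size was 0.23, against 0.15 over all tested genes. Null and wild type libraries did not overlap for 2 of the 10, Zim1 and Gnas, and the same held for 22.0% of all tested genes.

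**Figure D1:**
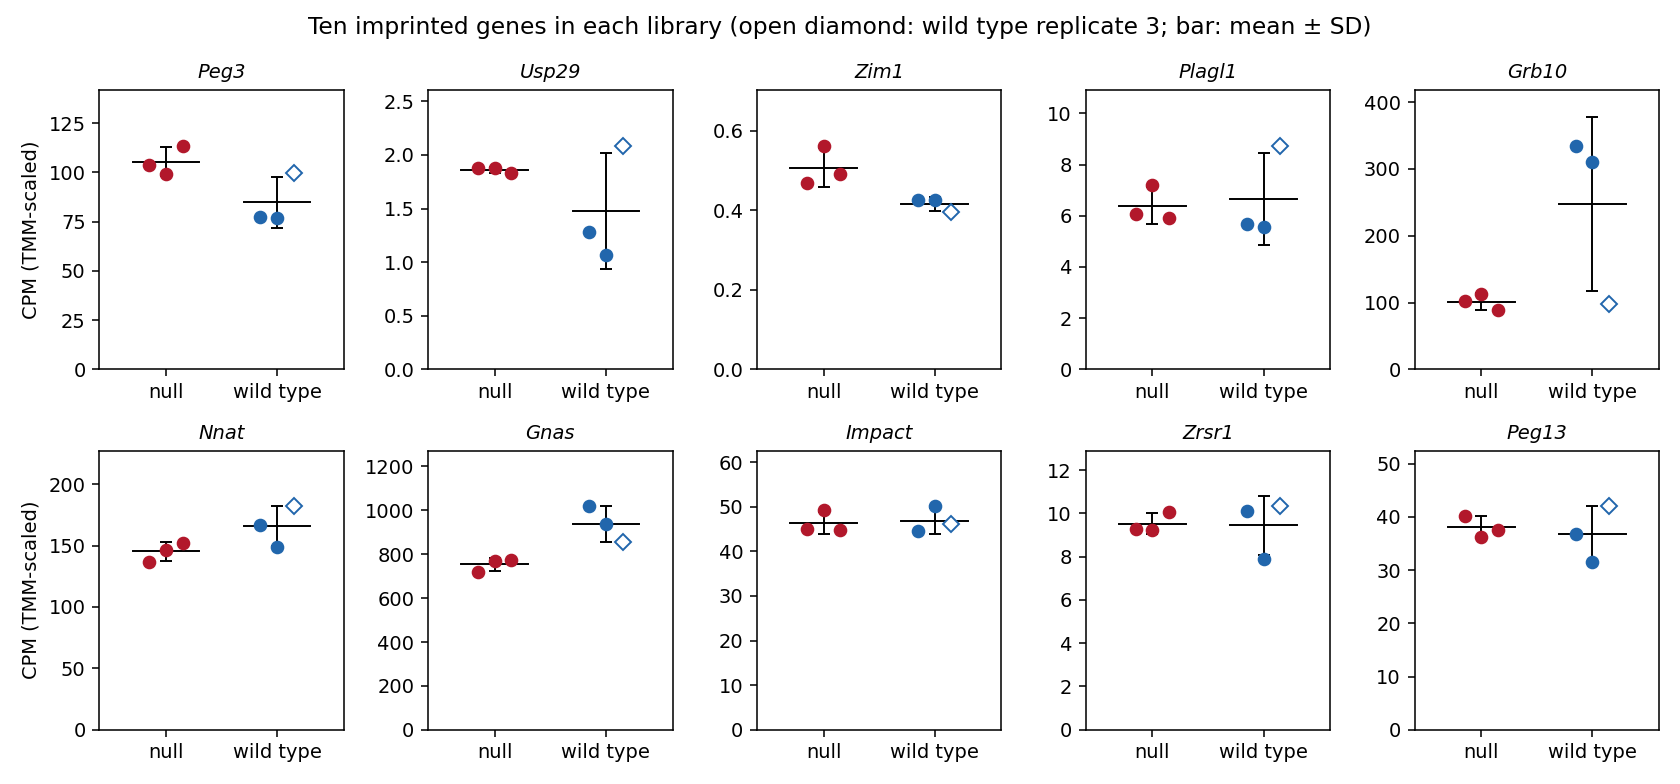
Each panel plots the CPM of one gene in every library on its own linear axis from 0, with null libraries on the left, wild type libraries on the right, and bars for the mean ± SD of 3 libraries. Grb10 stood at 310.0 CPM or more in wild type replicates 1 and 2 and at 98.1 CPM in wild type replicate 3 (open diamond), beside 89.1 to 113.2 CPM in null.

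Leaving out wild type replicate 3 gave 4 calls among the 10 genes, 2 higher in null (Peg3 and Usp29) and 2 lower (Grb10 and Gnas). That fit called 39.2% of all tested genes, so 4 of 10 is close to its background. Adding the sample-name range to the model gave 0 calls among the 10 genes and 1.31% of all tested genes. In that fit the wild type side of the lower name range is wild type replicate 3 alone. Wild type replicate 3 and the sample-name range cannot be told apart as the source of these differences.

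**Figure D2:**
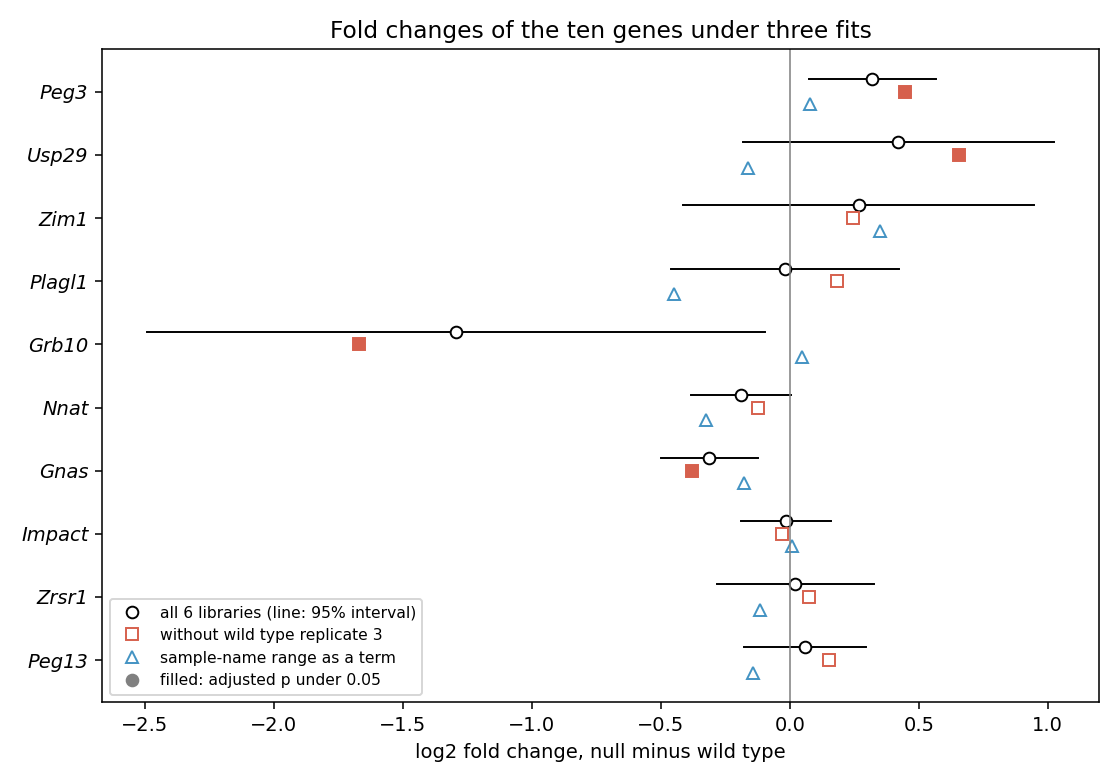
Log2 fold changes (null minus wild type) of the 10 genes from 3 fits, namely all 6 libraries with the 95% interval as a line, without wild type replicate 3, and with the sample-name range in the model. Filled symbols have an adjusted p under 0.05 and are Peg3, Usp29, Grb10 and Gnas without wild type replicate 3. Grb10 ran from -1.67 without wild type replicate 3 to 0.05 with the term.

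Grb10 (Entrez 14783, chromosome 11, 11930499 to 12037428, mm10, minus strand) encodes an adaptor protein that binds the insulin and IGF1 receptors and restrains their growth signal. It had 102, 113.2 and 89.1 CPM in null libraries, against 334.5, 310.0 and 98.1 CPM in wild type libraries. Wild type replicates 1 and 2 were high, and wild type replicate 3 lay inside the range of the null libraries, so the groups overlapped. Over all 6 libraries the log2 fold change was -1.29 ± 0.47 (SE), a mean of 101.5 ± 12.1 CPM in null and 247.5 ± 130.0 CPM in wild type (SD, n = 3 each), with an edgeR adjusted p of 0.251. Without wild type replicate 3 the log2 fold change was -1.67 (edgeR adjusted p = 1.55e-06). Within the libraries named 11 to 14 it was 0.05 (edgeR adjusted p = 0.921), a fit that assumes the lone wild type library varies like the null libraries. Of all tested genes, 99.3% had a smaller absolute difference between wild type replicate 3 and the mean of the other wild type libraries.

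Glial lineage markers also differed between the wild type libraries, and so did some neuronal markers. The neuronal sum, most of it Map2, did not set wild type replicate 3 apart. The 8 oligodendrocyte lineage markers, all tested, summed to 1420, 1430 and 1500 CPM in null and to 1210, 1120 and 1600 CPM in wild type replicates 1, 2 and 3. The 5 astrocyte markers summed to 123, 125 and 121 CPM in null and to 53.3, 69.3 and 160.0 CPM in wild type. Pdgfra, the receptor that marks oligodendrocyte precursors, had 112.6 to 137.5 CPM in null libraries, against 17.1, 18.3 and 167 CPM in wild type replicates 1, 2 and 3. The 7 neuronal markers summed to 1010, 1020 and 1030 CPM in null and to 1140, 1130 and 1090 CPM in wild type, most of it Map2. Among them Dcx had 3.2, 4.0 and 4.1 CPM in null, against 0.81, 0.38 and 5.56 CPM in wild type replicates 1, 2 and 3. Syt1 went the other way, with 16.9 to 20.4 CPM in null and 27.8, 21.6 and 12.5 CPM in wild type replicates 1, 2 and 3. Nefl, a neurofilament gene of this list, had 2.82, 1.97 and 2.90 CPM in null, against 0.54, 0.72 and 0.89 CPM in wild type, and was the only marker of any list called (edgeR adjusted p = 0.0228). The part of these markers in the Grb10 values was not tested, and in bulk RNA a change in the share of a cell type and a change of RNA per cell cannot be told apart.

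The 2 tested genes whose pattern over the 6 libraries was most like that of Grb10 were Ebf1, a transcription factor gene, and Adcy8, a calcium-stimulated adenylyl cyclase gene. Likeness was the root mean square distance between mean-centred log2 values, which was 0.134 for Ebf1 and 0.140 for Adcy8. Ebf1 had 3.52, 5.01 and 3.61 CPM in null libraries, against 13.4, 11.3 and 4.17 CPM in wild type libraries. Adcy8 had 2.73, 3.61 and 2.27 CPM in null, against 8.88, 7.93 and 2.78 CPM in wild type. In both genes, as in Grb10, wild type replicate 3 lay within the range of the null libraries.

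**Figure D3:**
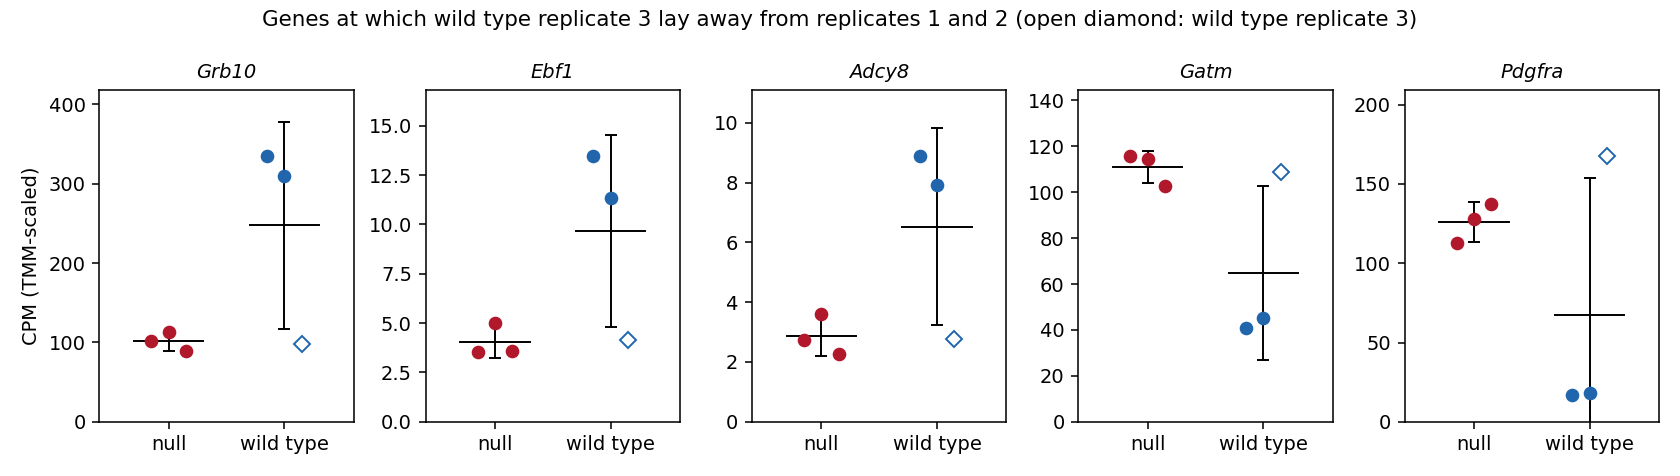
CPM by library, from 0, of Grb10, its nearest genes in pattern Ebf1 and Adcy8, and 2 genes chosen after their values were seen, Gatm and Pdgfra; null on the left, wild type on the right, bars for mean ± SD of 3 libraries. Wild type replicate 3 (open diamond) lay within or beyond the null range and away from wild type replicates 1 and 2 in all 5 panels, below them in Grb10, Ebf1 and Adcy8 and above them in Gatm and Pdgfra.

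Around GRB10, none of 9 tested genes of the insulin and IGF1 receptor axis was called. Irs1, a receptor substrate, had a log2 fold change of -0.22 ± 0.10 (SE), and Nedd4, a ubiquitin ligase that binds GRB10, had -0.16 ± 0.12. The receptor genes Igf1r and Insr stood at -0.10 ± 0.08 and 0.04 ± 0.08. The median of the list was -0.08, against 0.00 over all tested genes. Of the genes next to Grb10, Ddc, which encodes aromatic amino acid decarboxylase, had 1.22 to 1.43 CPM in null and 1.47 to 1.88 CPM in wild type (log2 fold change -0.29 ± 0.22, edgeR adjusted p = 0.467). Cobl, on the other side, was too low to be tested, at 0.49 CPM or less in every library.

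Peg3 (Entrez 18616, chromosome 7, 6703892 to 6730462, minus strand), a large zinc finger protein gene linked to maternal behaviour and to p53-dependent cell death, had 104, 99.0 and 113.5 CPM in null libraries. The wild type libraries had 77.3, 77.0 and 99.9 CPM. Only wild type replicate 3 reached into the null range. In the test of all 6 libraries the log2 fold change was 0.32 ± 0.11 (SE; 95% interval 0.07 to 0.57), with an edgeR adjusted p of 0.207. It was 0.45 without wild type replicate 3 (edgeR adjusted p = 2.49e-05) and 0.08 with the sample-name term (edgeR adjusted p = 0.743).

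Usp29 (Entrez 57775, chromosome 7, 6730559 to 6967220, plus strand), a ubiquitin-specific protease gene, starts from the region shared with Peg3. It was expressed at a low level, with 1.88, 1.87 and 1.83 CPM in null libraries, against 1.28, 1.07 and 2.08 CPM in wild type libraries. The null libraries lay close together, and the highest and the lowest value both came from wild type. Its log2 fold change was 0.42 ± 0.27 (SE; edgeR adjusted p = 0.400), 0.66 without wild type replicate 3 (edgeR adjusted p = 0.0321) and -0.16 with the sample-name term (edgeR adjusted p = 0.887). Counts were 40, 40 and 41 in null and 33, 25 and 21 in wild type.

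Zim1 (Entrez 22776, chromosome 7, 6674444 to 6696540), the maternally expressed zinc finger neighbour of Peg3, lies on the minus strand, 7441 bases beyond the end of Peg3 in the GENCODE annotation. It had 10, 12 and 11 counts in null libraries, against 11, 10 and 4 counts in wild type libraries. After scaling this was 0.47 to 0.56 CPM in null and 0.40 to 0.43 CPM in wild type, without overlap. The log2 fold change was 0.27 ± 0.30 (SE; edgeR adjusted p = 0.689), with a 95% interval of -0.41 to 0.95. Zim3 and Peg3os, noncoding or antisense neighbours in the same domain, had no counts in any library. Zim3 shares 2582 exonic bases with Usp29 on the other strand in the GENCODE annotation, and Peg3os lies within the span of Peg3. The library kit does not mark strand, so the lack of counts does not show that either gene is silent.

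Plagl1 (Entrez 22634, chromosome 10, 13090832 to 13131694, plus strand), also called Zac1, encodes a zinc finger transcription factor that restrains the cell cycle. It had 6.06, 7.21 and 5.93 CPM in null libraries, against 5.70, 5.54 and 8.73 CPM in wild type libraries. Wild type replicate 3 was the highest of the 6, and wild type replicates 1 and 2 were the lowest. The log2 fold change was -0.02 ± 0.20 (SE; 95% interval -0.46 to 0.43). The sign turned without wild type replicate 3 (0.18, edgeR adjusted p = 0.303), and the value was -0.45 with the sample-name term (edgeR adjusted p = 0.330). Among 12 tested partners and targets of PEG3 and PLAGL1 none was called, and the smallest p values belonged to Trp53 (-0.36 ± 0.10) and Cdkn1a (-0.21 ± 0.07). Trp53 encodes p53, and Cdkn1a the cell cycle inhibitor p21, which had 169.5, 176.9 and 181 CPM in null, against 202, 193 and 216 CPM in wild type. Cdkn1a was called lower in null with the sample-name term (log2 fold change -0.30, edgeR adjusted p = 0.0321).

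Gnas (Entrez 14683, chromosome 2, 174284320 to 174346744, plus strand) encodes the stimulatory G protein subunit that couples receptors to adenylyl cyclase, beside other products of the same locus. It was the most abundant of the 10 genes in CPM, with 720, 768 and 775 CPM in null libraries, against 1018, 938 and 854 CPM in wild type libraries. All null libraries lay below all wild type libraries, with a log2 fold change of -0.31 ± 0.08 (SE; 95% interval -0.50 to -0.12), an edgeR adjusted p of 0.143 and a DESeq2 adjusted p of 0.0135. Without wild type replicate 3 it was -0.38 (edgeR adjusted p = 2.76e-05), and with the sample-name term -0.18 (edgeR adjusted p = 0.242).

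The antisense gene at the Gnas locus, Gnasas1 (also Nespas), had 5.59, 5.20 and 5.39 CPM in null libraries, against 4.46, 4.73 and 4.46 CPM in wild type libraries. It did not pass (log2 fold change 0.24 ± 0.14 (SE), edgeR adjusted p = 0.349). Its exons overlap 988 exonic bases of Gnas on the other strand in the GENCODE annotation, and the library kit does not mark strand, so reads there cannot be assigned to either gene. Klf12, a transcription factor gene, and Hadh, a fatty acid oxidation gene, were the nearest in pattern to Gnas, at distances of 0.014 and 0.029.

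Of 23 tested genes of the cAMP pathway downstream and beside GNAS, none was called, 16 had a positive and 7 a negative log2 fold change, and their median was 0.20. Adcy3, an adenylyl cyclase gene, had 26.5, 26.9 and 28.7 CPM in null, against 22.4, 19.4 and 23.8 CPM in wild type (log2 fold change 0.33 ± 0.09 (SE), edgeR adjusted p = 0.165). Adcy8, given above, had -1.25 ± 0.38. Prkar1a, a regulatory subunit of protein kinase A, had -0.18 and an adjusted p of 0.0377 in DESeq2. Without wild type replicate 3, 11 of these genes were called higher and 2 lower in null, where 19.7% and 19.4% of all tested genes were, and with the sample-name term none was.

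Nnat (Entrez 18111, chromosome 2, 157560078 to 157562525, plus strand) encodes neuronatin, a small membrane protein of the endoplasmic reticulum linked to calcium handling, and lies inside an intron of Blcap on the other strand. It had 137, 147 and 152 CPM in null libraries, against 167, 149 and 182 CPM in wild type libraries. Wild type replicate 2 fell inside the null range, and the log2 fold change was -0.19 ± 0.09 (SE; 95% interval -0.39 to 0.00), with an edgeR adjusted p of 0.275. Nnat was the only one of the 10 called within the libraries named 11 to 14 (log2 fold change -0.33, edgeR adjusted p = 0.00613), where 2.55% of tested genes were called against a single wild type library. Blcap, which shares no exonic base with Nnat, had 23.7, 23.3 and 19.8 CPM in null and 20.8, 22.2 and 25.9 CPM in wild type (-0.04 ± 0.11).

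In the test of all 6 libraries, genes of the endoplasmic calcium store were not called either, in 9 tested. Atp2a2, the calcium pump gene of this membrane, stood at -0.01 ± 0.07 (SE). Itpr2, a calcium release channel gene, had -0.19 ± 0.07, and Ryr3, another one, had 0.61 ± 0.23. Ryr3 had 4.86 to 5.64 CPM in null, against 2.95, 2.73 and 4.96 CPM in wild type replicates 1, 2 and 3.

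Impact (Entrez 16210, chromosome 18, 12954690 to 12992950, plus strand) encodes an inhibitor of the translational stress kinase GCN2. It was the steadiest of the 10 genes, with 45.1, 49.1 and 44.9 CPM in null libraries, against 44.5, 50.1 and 46.0 CPM in wild type libraries. The groups overlapped, and the highest library was 1.12 times the lowest. The log2 fold change was -0.02 ± 0.08 (SE), and its 95% interval ran from -0.19 to 0.16. Without wild type replicate 3 it was -0.03, and with the sample-name term 0.01. Its neighbour Osbpl1a, an oxysterol binding protein gene, stood at 0.06 ± 0.12.

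In the stress response that GCN2 starts, none of 10 tested genes was called, 8 had a negative log2 fold change, and the median was -0.27. Eif2ak4, which encodes GCN2 itself, had 0.09 ± 0.07 (SE). Chac1 and Trib3, targets of the pathway, had -0.71 ± 0.23 and -0.63 ± 0.22 (edgeR adjusted p = 0.203 and 0.211). Atf4, the central transcription factor gene, had 61.3, 64.9 and 58.0 CPM in null, against 85.5, 92.3 and 57.0 CPM in wild type, so that wild type replicate 3 lay below all null libraries. Without wild type replicate 3, 7 of the 10 were called lower and 0 higher, where 19.4% of all tested genes were lower, and with the sample-name term none was called.

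Zrsr1 (Entrez 22183, chromosome 11, 22972005 to 22976496, plus strand), an RNA-binding gene related to the small subunit of the splicing factor U2AF, lies within the span of Commd1 on the other strand. It had 9.26, 9.23 and 10.07 CPM in null libraries, against 10.12, 7.89 and 10.3 CPM in wild type libraries. The null libraries lay inside the wild type range, and the log2 fold change was 0.02 ± 0.13 (SE; 95% interval -0.28 to 0.33). Its X-linked relative Zrsr2 stood at 40.6, 38.8 and 37.7 CPM in null and at 38.7, 42.4 and 37.2 CPM in wild type (-0.02 ± 0.08). No stretch of 50 bases of the Zrsr1 transcript was found in the annotated Zrsr2 transcripts, and the longest exact run they share was 37 bases.

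Commd1, the host gene, is known as maternally biased in mouse brain and encodes a copper metabolism protein. It had 45.7, 48.8 and 47.4 CPM in null libraries, against 56.4, 58.3 and 43.1 CPM in wild type libraries (log2 fold change -0.16 ± 0.11 (SE), edgeR adjusted p = 0.433). Zrsr1 shares 412 exonic bases with it in the GENCODE annotation, on opposite strands. Of 7 tested splice-site partners and relatives none was called, and their log2 fold changes lay between -0.04 and 0.13, with U2af1 at 0.13 ± 0.16 and the splicing factor gene Srsf1 at 0.06 ± 0.07.

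Peg13 (Entrez 353342, chromosome 15, 72805602 to 72810324, minus strand), a long noncoding RNA, lies in an intron of Trappc9 on the same strand. It had 40.3, 36.3 and 37.6 CPM in null libraries, against 36.7, 31.5 and 42.0 CPM in wild type libraries. Wild type held both the highest and the lowest library. The log2 fold change was 0.06 ± 0.11 (SE; 95% interval -0.18 to 0.30), and it was -0.14 with the sample-name term (edgeR adjusted p = 0.625). Trappc9, a vesicle transport gene, had 28.8, 29.9 and 31.9 CPM in null and 33.6, 29.0 and 27.7 CPM in wild type (0.00 ± 0.09). Ago2, an RNA interference gene of the same domain, stood at 0.06 ± 0.06. Kcnk9, the potassium channel gene known as its maternally expressed neighbour in brain, had 1 count in null and 1 count in wild type over all libraries.

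Per length, the 10 genes spanned about 3 orders of magnitude. On the scale of CPM per kilobase of deposited gene length, the order by median over the 6 libraries was Gnas (134.5), Nnat (124.5), Grb10 (20.9), Peg3 (15.1), Impact (13.2), Peg13 (7.88), Zrsr1 (2.15), Plagl1 (1.14), Usp29 (0.253) and Zim1 (0.128). Gnas and Nnat overlapped over the 6 libraries, as did Peg3 and Impact, and Usp29 and Zim1. The other neighbours in this order did not overlap. Group means put Grb10 at 19.7 ± 2.35 CPM per kilobase in null and 48.0 ± 25.2 in wild type (SD, n = 3 each), which placed it below Nnat and above Peg3 in both groups. The spread between libraries, as the SD over the mean, was smaller in null than in wild type for 9 of the 10 genes, from 1.53% to 11.9% in null and from 4.08% to 52.5% in wild type. The same held for 76.4% of all tested genes. Without wild type replicate 3 it held for 6 of the 10 genes and for 46.1% of all tested genes.

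Genes that host or neighbour the 10 were not called, with 23 tested, a median log2 fold change of 0.02 and 12 positive and 11 negative values. The smallest p values belonged to Chrac1, a chromatin remodelling gene near Peg13 (-0.32 ± 0.13 (SE)), and Ctnnbl1, near Nnat (-0.17 ± 0.07). Genes known to protect imprints were not called either, in 8 tested. Zfp57, whose protein binds methylated TGCCGC, had 16.4, 18.4 and 14.4 CPM in null, against 9.92, 13.2 and 12.9 CPM in wild type (log2 fold change 0.46 ± 0.14, edgeR adjusted p = 0.189). Arid4a, a chromatin binding gene, had -0.23 ± 0.07, and Dnmt1, the maintenance DNA methyltransferase gene, had -0.15 ± 0.08.

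A further 15 tested genes, each known as imprinted in some tissue, were not called, with a median log2 fold change of 0.09. Some of them lie close together, and whether they are imprinted in these cells was not examined. Ampd3, an AMP deaminase gene imprinted in placenta, had 5.64, 7.96 and 6.11 CPM in null, against 10.50, 9.46 and 9.43 CPM in wild type (-0.58 ± 0.15 (SE), edgeR adjusted p = 0.143). Sfmbt2, a Polycomb-related gene, had 3.24, 2.34 and 2.50 CPM in null, against 1.202, 0.81 and 2.18 CPM in wild type (1.07 ± 0.33, edgeR adjusted p = 0.188). Gatm, a creatine synthesis gene, had 115.6, 114.4 and 102.9 CPM in null, against 41.0, 45.3 and 109 CPM in wild type, and its log2 fold change was 0.80 over all libraries, 1.36 without wild type replicate 3 and 0.03 with the sample-name term.

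**Figure D4:**
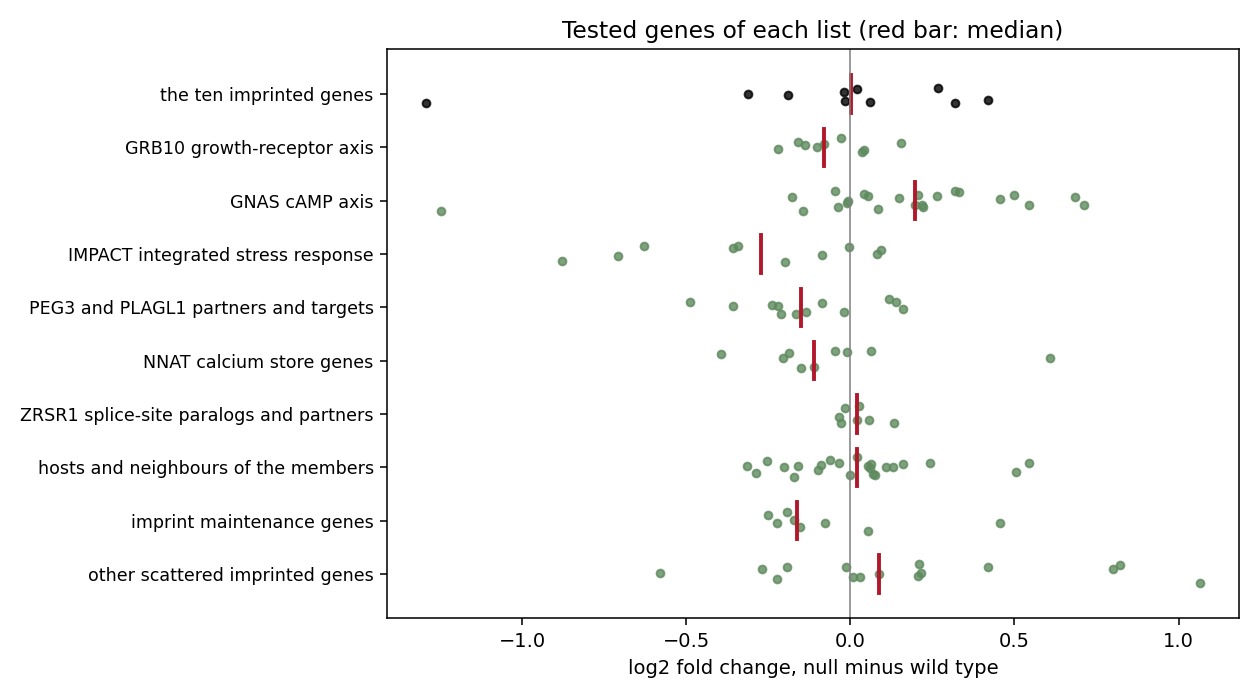
Log2 fold changes (null minus wild type, all 6 libraries) of the tested genes in the set of 10 imprinted genes (top) and in 9 lists of related genes, with the median of each as a red bar. No gene plotted had an edgeR adjusted p under 0.05; medians ran from -0.27 for the IMPACT stress response list to 0.20 for the cAMP list.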

How the data were processed

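Total RNA, 1 µg per library, went into a TruSeq RNA v2 kit, per the labels' protocols. The authors deposited raw counts per Entrez gene with gene lengths, per the file headers. The submitters' processing notes name CASAVA 1.8.2, featureCounts, edgeR 3.8.2, limma 3.22.0 and the build mm10. No label or file header names the aligner or the annotation.

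Symbols and coordinates came from RefSeq GRCm38.p6, which matched 93.0% of the 27179 IDs, and overlaps from GENCODE M21 for GRCm38. Counts were tested in R 4.3.3 with edgeR 4.0.16 (filterByExpr, TMM, robust quasi-likelihood fit with genotype as its only term), which tested 14207 genes. The two-sided p-values were adjusted by Benjamini-Hochberg over all tested genes at a threshold of 0.05, and the scripts were tested on simulated data. CPM divides counts by TMM-scaled library sizes. Standard errors and 95% intervals were derived from the F statistic. Pattern distances used log2(CPM + 0.5).

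Alternatives were DESeq2 1.42.0, limma-voom 3.58.1 with and without quality weights, other scalings and filters, a replicate block, the range of sample-name numbers as a term, a subset by those numbers, removal of records above 1% of a library, and each library left out. No pair of libraries within a group agreed within sampling noise: the mean chi-square per gene was at least 7.26, and the median was 0.88 to 1.22 without wild type replicate 3 and 76.8 to 81.1 with it, against 0.45 for sampling noise alone. Named genes are the 10 genes, a fixed choice of their hosts and neighbours (Commd1, Blcap, Trappc9, Kcnk9, Gnasas1, Osbpl1a, Cobl, Ddc and Ago2), Zrsr2, Smchd1, the 2 smallest p of each related list and the nearest patterns, of which 1 is not reported here. Others were chosen after their values were seen. The genes and lists were chosen with earlier results of these data known.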

Additional observations from a re-analysis of the deposited data

How the results depend on the processing

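Over all tested genes the count of calls, 82, became 401 with DESeq2, 145 with limma-voom, 5229 with quality weights, 222 without a filter, 40 with at least 10 counts in every library, 186 with the sample-name term, 376 within the libraries named 11 to 14, and 30 to 5676 when 1 library was left out, the highest without wild type replicate 3. Among the 10 genes, calls higher in null stayed at 0 except for 2 with quality weights and 0 to 2 on leaving out a library. Calls lower in null were 1 with DESeq2, 2 with quality weights, 1 within the libraries named 11 to 14, and 0 to 2 on leaving out a library. Every call gained by leaving out a library came from leaving out wild type replicate 3. Related genes called, 0 in all 6 libraries, were 1 with DESeq2, 52 with quality weights, 2 with the sample-name term (Cdkn1a and Bcl2l1), 3 within the libraries named 11 to 14, and 0 to 53 on leaving out a library. With the replicate block 54 of all tested genes were called, and none of the 10 or of the related genes. Same-numbered null and wild type libraries correlated at -0.06 to 0.02 in their deviations from the group means, and the other pairs at -0.08 to 0.08. Wild type replicate 3 weighs heavily on all wild type deviations, so these values cannot decide whether the numbers pair the libraries.

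Signs turned for 6 of the 10 genes under some setting, in each case with an adjusted p above 0.05. With the sample-name term and within the libraries named 11 to 14, the log2 fold changes were -0.163 and -0.165 for Usp29, 0.048 and 0.047 for Grb10, 0.010 and 0.009 for Impact, -0.115 and -0.117 for Zrsr1, and -0.142 and -0.143 for Peg13. Plagl1 stood at 0.05 with limma-voom, 0.17 with quality weights and 0.011 with upper quartile scaling, where Impact stood at 0.016. On leaving out a library, Plagl1 ran from -0.134 to 0.183, Impact from -0.062 to 0.034, Zrsr1 from -0.102 to 0.085 and Peg13 from -0.044 to 0.152. Peg3, Zim1, Nnat and Gnas kept their sign under every alternative run; Zim1 could not be tested with at least 10 counts in every library. The cause of these turns was not tested. Zim1 and Usp29 had the fewest counts of the 10 genes, at 4 to 12 and 21 to 41 per library, so counting error is largest for them.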

Other observations

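The nearest patterns over the 6 libraries, by root mean square distance of mean-centred log2 values, were Tmem151b (0.020) and Pde7b (0.022) for Peg3. For Usp29 they were Mlycd and Sox8 (0.020 each), for Plagl1 3110082J24Rik (0.035) and Maf (0.042), and for Impact Nprl2 (0.010) and Golgb1 (0.018). They were Edem2 (0.017) and Rnf123 (0.021) for Zim1, Gm8692 (0.027) and Sirt2 (0.031) for Nnat, G6pc3 (0.018) for Zrsr1, and Gapdhs (0.027) and Caskin2 (0.032) for Peg13. Sox8, a transcription factor gene of glial lineages, had 77.3, 74.5 and 74.8 CPM in null libraries, against 58.2, 49.7 and 82.5 CPM in wild type libraries. Maf, a leucine zipper transcription factor gene, had 9.40, 11.2 and 9.94 CPM in null, against 8.91, 9.08 and 14.3 CPM in wild type, with wild type replicate 3 the highest library, as for Plagl1. These distances describe the 6 libraries alone. The 0.5 CPM added before the log shrinks differences between libraries for genes of low level. The distances of Zim1 and Usp29 therefore depend on that setting and on few counts.

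Promoter windows were used for 8 of the 10 genes, all but Impact and Peg13. Windows on chromosome 18, where Impact lies, were left out of the search. There were 12 windows in all, and all 12 held more CG dinucleotides than the median window. The YY1 letters GCCATNTT, searched on both strands, were in 0 of the 12 windows and in 6.1% of all windows. The 12 windows, some of which overlap, are too few to set these shares apart. Sequence of these genes outside the windows was not searched, so the search does not show that the genes lack the YY1 letters.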
